A study of Rattus norvegicus with 18 samples.

Results

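The regions described here are 2902 weakly enriched m6A peaks that appear in the peak lists of both compounds, out of 19036 listed peaks. A peak was taken when its fold enrichment was below 1.5 and its span shared at least 1 base, on the same chromosome and strand, with a peak of the other list. Of these, 1353 stood in the bufalin list, which has 9866 peaks on 5122 genes, and 1549 in the periplocin list, which has 9170 peaks on 4879 genes. They lay on 1179 and 1337 genes, of which 921 were the same, that is 78.1% of the bufalin set and 68.9% of the periplocin set. The peaks were thus chosen by their measured fold enrichment and by presence in both lists, and both are given as a description, without a test.

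The study treated H9C2, a wild-type rat myocardial line of myoblasts, with bufalin or periplocin and compared each compound with the same control cells. Bufalin comes from toad venom and periplocin from a plant, and both are cardiotonic steroids that inhibit the sodium pump. There were 18 samples, an immunoprecipitated (IP) and an input library for each of 3 replicates of the 3 conditions, and the question was whether m6A takes part in the cardiotoxicity of the compounds. Doses and times were not analysed here. The files used give 1 value per peak or gene and comparison, so values and depths of single libraries were not analysed here. Nothing in the labels ties replicates to separate cultures, and the RNA p-values then measure only the spread between these samples, which may be technical. Whether the p-values of peaks measure a spread between samples at all is not known, since the peak caller and any pooling of replicates are not given.

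N6-methyladenosine (m6A) is a methyl mark that a nuclear methyltransferase complex places on mRNA, where reader proteins bind it and influence splicing, stability and translation. In mammalian mRNA the mark is known to gather around stop codons and in long exons and to be sparse close to splice junctions. In MeRIP-seq an m6A antibody pulls down fragments of RNA, and the ratio of IP to input over a stretch of exon, the fold enrichment, says how strongly that stretch was recovered. Peak values below are the authors' own, coordinates are of the rat build rn6, and a peak that joins several exon blocks has an exonic length shorter than its span. A fold with bufalin or with periplocin means the fold given in that list. Whether it covers treated libraries, control libraries or both is not known here. Sequences under the peaks are not shown, since no rn6 genome was used here.

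Weak peaks made up 2122 of the bufalin list and 2039 of the periplocin list. Of the weak peaks, 63.8% of the bufalin list and 76.0% of the periplocin list overlapped a peak of the other list, against 88.2% and 93.3% of the peaks at 1.5 or above. Among the weak peaks in both lists the median fold enrichment was 1.37 in either list, and the range ran from 1.03 to 1.49 with bufalin and from 1.07 to 1.49 with periplocin. In the bufalin list 81 were below 1.2, 715 between 1.2 and 1.4, and 557 at 1.4 or above. The corresponding numbers in the periplocin list were 137, 784 and 628.

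**Figure D1:**
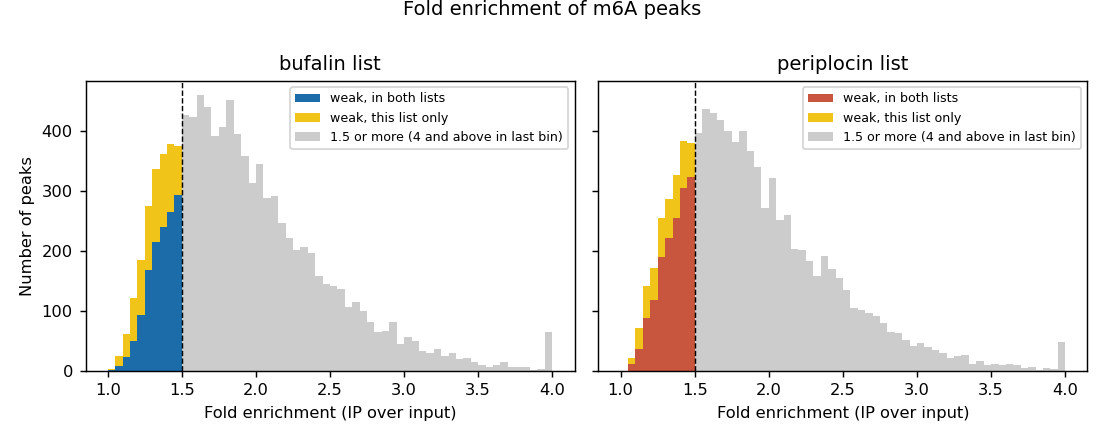
Number of peaks (y axis) by fold enrichment of IP over input (x axis, bins of width 0.05) in the bufalin list (left) and the periplocin list (right). Coloured bars are weak peaks found in both lists, yellow bars weak peaks of that list alone, grey bars peaks at 1.5 or more, with values of 4 and above in the last bin, and the dashed line marks 1.5. The 1353 and 1549 coloured peaks form the left flank of a single-humped distribution with no gap at the threshold.

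The threshold cut through a continuous range. In the bufalin list the members next to it were peaks on genes such as Ankrd13c and Atg4c at 1.49, and the overlapping peaks on Arfgef1, Arhgap21 and Arhgap39 stood at 1.5 just outside. In the periplocin list Alms1, Brd3 and Cabp1 were at 1.49 inside, and Acin1, Adamts6 and Ahcyl2 at 1.5 outside.

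At the bottom of the range stood a 100-base peak on Brox, which encodes a Bro1-domain protein, at chr13:101678051-101678150. Its fold enrichment was 1.03 in the bufalin list and 1.08 in the periplocin list. The deposited enrichment p of that peak had a log10 value of -16.8 with bufalin and -19.0 with periplocin. Next in the bufalin list came Bnip2, a partner of Bcl2 family proteins, and Mill1, an MHC-class-I-like gene, at 1.06, then Cib2, a calcium-binding protein, and Map4, which binds microtubules, at 1.07. In the periplocin list the other lowest peaks, all at 1.07, were on Ccn1, a matricellular growth regulator, Csgalnact1, an enzyme of chondroitin sulfate synthesis, Gtpbp4, a GTPase of ribosome assembly, and Usp30, a mitochondrial deubiquitinase. Their partners in the bufalin list were at 1.11, 1.29, 1.57 and 1.25.

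The enrichment p of these peaks was low, which their choice partly sets. Each had to be listed as a peak and to overlap a listed peak of the other list, by a cut not known here. The values below are thus a description. The median log10 p of enrichment was -9.89 for the bufalin members and -9.49 for the periplocin members, against -10.4 and -10.3 for peaks at 1.5 or above in both lists and -8.00 and -7.79 for weak peaks of 1 list. Of the members, 661 with bufalin and 677 with periplocin had a p below 1e-10. The p is not always a value of 1 peak, since 28.8% of the bufalin members and 28.7% of the periplocin members carried the same deposited log10 p as another peak of their gene.

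Most members had a weak partner. There were 2068 overlapping pairs with at least 1 weak peak, of which 1090 were weak in both lists, 425 in the bufalin list only and 553 in the periplocin list only. In pairs weak in both lists the fold enrichments lay a median of 0.05 apart, and in pairs of peaks at 1.5 or above, whose range is wider, 0.140 apart. Both lists come from comparisons with the same control libraries, so likeness between them cannot be taken as independent. Spans were identical in 61.7% of the pairs weak in both lists, in 49.0% of those with 1 weak peak and in 54.6% of those with none. Every overlap counts as a pair, so the 1090 pairs weak in both rest on 1007 bufalin and 1002 periplocin members. Peaks with several partners, as at the protocadherin genes below, thus weigh more in these pair counts and shares.

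Where only 1 peak of a pair was weak, its partner was usually close to the threshold. The partner's median was 1.62, and 689 of the 978 such partners (70.4%) were below 1.7. Partners of 2 or more occurred in 88 pairs and partners of 3 or more in 9. The largest gap was at Cttn, which encodes the actin-binding protein cortactin, with 1.45 in the periplocin list and 8.11 in the bufalin list. Behind it came Snrnp48, a part of the minor spliceosome, with 1.32 against 4.04, Npat, a regulator of histone genes, with 1.4 against 3.53, and Hltf, a DNA translocase, with 1.43 against 3.41, all weak in the periplocin list. Map2k3, a kinase that activates p38, was weak in the bufalin list at 1.29 and stood at 3.61 in the periplocin list. The partners differed in extent: the Cttn peak had 150 exonic bases in the periplocin list and 644 in the bufalin list, the Npat peak 100 and 998. The 2 folds of such a pair are therefore not of the same bases, and a change at the shared bases was not tested. The deposited log2 m6A changes, periplocin list first, were -0.20 and 1.73 for Cttn and 0.06 and -0.03 for Snrnp48. For Npat they were -0.44 and 0.03, and for Hltf -0.01 and -0.09.

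**Figure D2:**
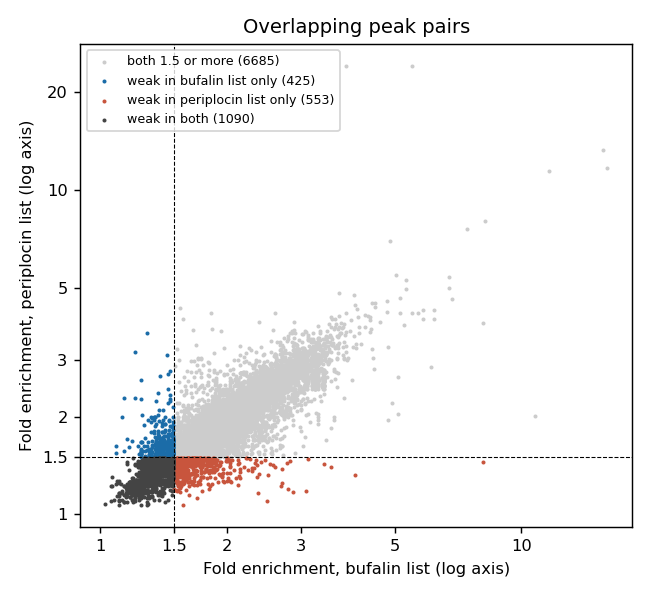
Fold enrichment of overlapping peaks in the bufalin list (x axis) and the periplocin list (y axis), both on log axes, with 1 point per pair and dashed lines at 1.5. Of the pairs with a weak peak, 1090 fall in the lower left corner and 978 in the 2 strips beside it, most of them near the lines.

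The lists name a peak by gene, and overlapping genes can hold the same stretch. Of the 2068 pairs, 158 joined peaks of different gene names, and 156 of these were pairs of protocadherin genes, whose clustered variants share their last exons. Members with a protocadherin name numbered 15 in the bufalin list and 7 in the periplocin list, and their reads cannot be assigned to 1 variant from these files. Merged by position, the members formed 1340 and 1542 separate loci.

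Weak peaks in both lists were shorter than the stronger peaks in both lists and more often crossed exon junctions. The median exonic length was 101 bases in either list, against 199 and 198 bases for the other peaks in both lists, and 54.8% of the bufalin members and 56.8% of the periplocin members had 101 bases or fewer. The shortest had 94 bases, and the longest 544 with bufalin and 600 with periplocin. Peaks joined over 2 or more exon blocks made up 56.7% of the bufalin members, 767 of 1353, and 52.9% of the periplocin members, 820 of 1549. Among the other peaks in both lists these shares were 44.2% and 43.5%. Peaks of 1 list alone were shorter still, with 78.3% and 78.4% at 101 bases or fewer where weak and 65.2% and 66.7% where at 1.5 or above. Their junction shares were lower than those of the members, at 41.4% and 38.8% where weak and 28.7% and 35.8% otherwise.

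The share of junction peaks was higher among members within either length class. At 101 bases or fewer it was 46.5% of bufalin members against 33.3% of the other peaks in both lists, and 43.9% against 31.3% with periplocin. Above 101 bases it was 69.1% against 47.5% with bufalin and 64.9% against 47.5% with periplocin. These shares describe listed peaks and carry no test, because neighbouring peaks of a gene are not independent. With the threshold at 1.6, 56.4% of the bufalin and 52.1% of the periplocin members crossed junctions, so the share was not particular to folds below 1.5. Over the whole lists it was 52.1% and 52.0% of the peaks between 1.4 and 1.5. Between 1.5 and 1.6 it was 49.2% and 48.6%. The share was lowest at the top of the scale, with 29.3% and 29.7% of all listed peaks at 2.5 or more.

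The share of weak peaks on the plus strand was nearer to an even split than that of the stronger peaks found in both lists. The plus strand held 719 of the 1353 bufalin members (53.1%) and 827 of the 1549 periplocin members (53.4%). Of the other peaks in both lists it held 64.8% and 64.9%, and of peaks at 2.5 or more 73.1% and 74.8%. The balance was not particular to the members: peaks of 1 list alone were at 52.8% and 52.9% where weak and at 53.1% and 61.0% where at 1.5 or above, and peaks between 1.5 and 1.6 were at 55.5% and 58.4%. Genes of both strands are about equally common, with 50.5% on the plus strand among 8502 genes that had a mean of at least 10 normalized counts and a strand in RefSeq. The strand of a peak equalled the RefSeq strand of its gene in 94.4% of the bufalin members and 95.0% of the periplocin members that could be matched. The median length of the members was 101 bases on either strand, and that of the other peaks in both lists was 200 bases on the plus strand and 190 on the minus strand with bufalin, and 199 and 151 with periplocin. The part of peak length in this pattern was not tested.

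**Figure D3:**
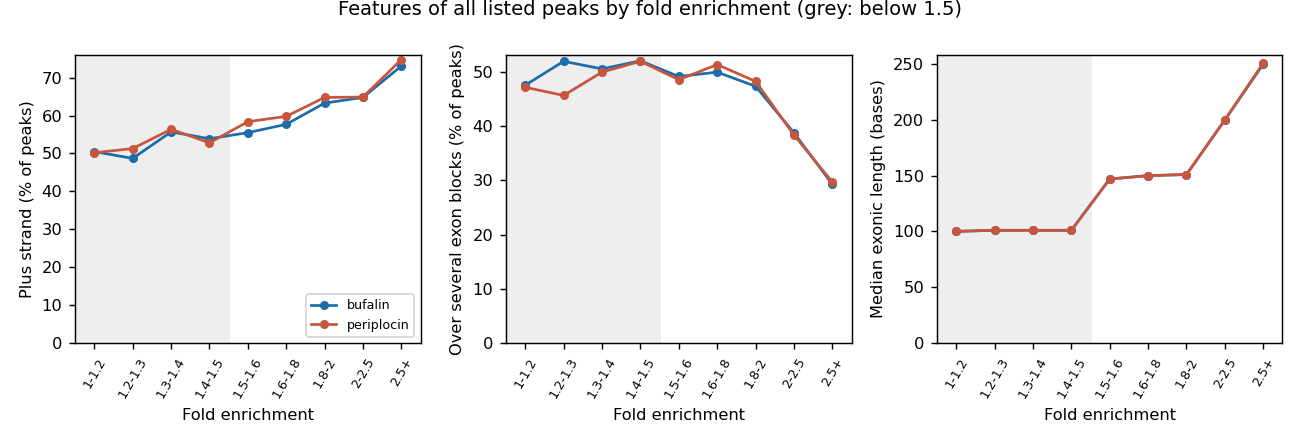
Share of peaks on the plus strand (left, %), share joined over several exon blocks (middle, %) and median exonic length in bases (right) for all listed peaks in 9 classes of fold enrichment (x axis), with 1 point per class for bufalin (blue) and periplocin (red) and the classes below 1.5 on grey. The plus strand holds 50.5% and 50.2% of peaks in the lowest class and 73.1% and 74.8% in the highest, and the median length goes from 100 bases to 250 and 251.

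Position along the gene gave similar shares. On genes whose most enriched peak was another one at 1.5 or above, 447 of 832 bufalin members (53.7%) and 502 of 954 periplocin members (52.6%) lay 5′ of it, against 52.8% and 51.5% of the other peaks in both lists. Within 1000 bases of that peak lay 24.4% and 26.7% of the members and 30.6% of the others in either list. This distance is genomic, with introns included, and not one along the transcript. On 473 of the 1179 genes with a bufalin member (40.1%) and 544 of the 1337 with a periplocin member (40.7%), no peak of that list reached 1.5.

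Genes that had only weak peaks included several with many reads. Canx, which encodes the endoplasmic reticulum chaperone calnexin, had a single listed peak at chr10:35805051-35805336, at 1.25 in the bufalin list and 1.27 in the periplocin list. The ribosomal protein gene Rpl13a had a single peak of 95 bases at chr1:101120935-101121029, at 1.2 in either list. Lrp1, a large endocytic receptor, had a single peak at 1.44 and 1.33, and Actn4, an actin crosslinker, one at 1.33 and 1.32, both named after their values were seen. Ribosomal protein genes have many processed copies in mammalian genomes, so the level of Rpl13a is uncertain if copies share reads.

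Few genes held many weak peaks: 1031 of 1179 genes had 1 member in the bufalin list and 17 had 3 or more, and with periplocin these numbers were 1161 of 1337 and 24. Macf1, a giant linker of microtubules and actin, had the most, with 6 of its 23 bufalin peaks and 8 of its 19 periplocin peaks. In Macf1, 5 of the 6 and 6 of the 8 members crossed a junction, against 4 of the other 17 and 2 of the other 11 peaks. The strongest Macf1 peak had a fold of 3.08 at chr5:141118678-141118928 with bufalin and 3.14 at chr5:141118678-141119177 with periplocin, each in 1 exon block. Counted 5′ to 3′ from the gene's first listed peak with introns included, these peaks were centred at 75.24 and 75.12 kb. All Macf1 members lay outside that middle stretch, at 6.23 and 23.76 kb or between 107.87 and 130.6 kb, with folds from 1.19 to 1.48 and from 1.14 to 1.49.

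Ddx23, an RNA helicase of the spliceosome, had 5 listed peaks in each list, and all were weak, present in both and joined over 2 or 3 blocks. From 5′ to 3′ their folds were 1.41, 1.28, 1.12, 1.42 and 1.3 with bufalin and 1.34, 1.3, 1.24, 1.44 and 1.39 with periplocin. Xpc, a sensor of DNA damage in nucleotide excision repair, was laid out differently, with 4 weak members at 1.19 to 1.48 with bufalin and 1.17 to 1.42 with periplocin beside a peak of 3.67 and 3.25; the periplocin list had a further Xpc peak at 1.52. Utrn, which encodes the dystrophin relative utrophin, had 5 of 8 bufalin peaks and 4 of 9 periplocin peaks among the members, and its highest peak was only 1.73 and 1.89.

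**Figure D4:**
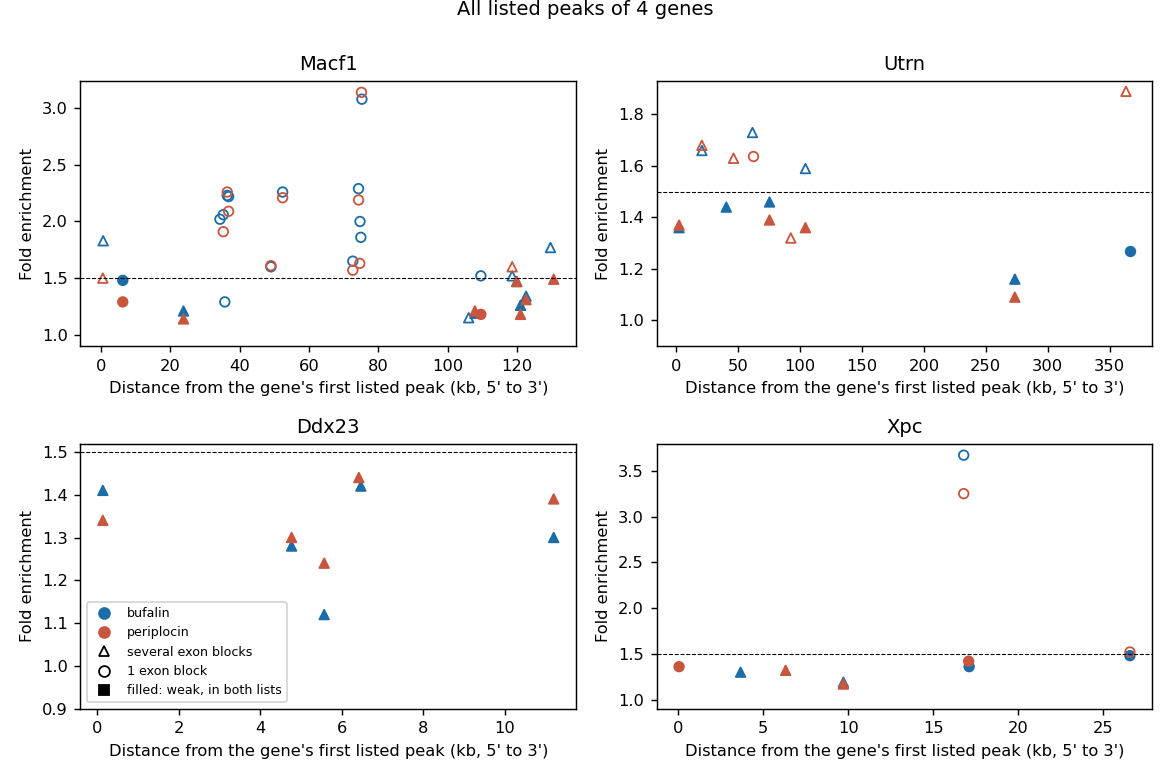
Fold enrichment (y axis) of every listed peak on Macf1, Utrn, Ddx23 and Xpc by distance in kb from the first listed peak of the gene (x axis, 5′ to 3′, introns included), for bufalin (blue) and periplocin (red). Filled symbols are weak peaks found in both lists, triangles peaks over several exon blocks, circles peaks in 1 block, and the dashed line marks 1.5. All 5 Ddx23 peaks lie below the line in both lists, and the Xpc members lie beside a peak at 3.67 and 3.25.

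The genes under weak peaks had many reads. The mean normalized count of a gene over the libraries of a comparison grows with transcript length and is used here as the depth behind a peak, not as an expression level. Its median over peaks was 3480 for the bufalin members and 3083 for the periplocin members, 3020 and 2901 for the other peaks in both lists, and 2028 and 1755 for weak peaks of 1 list only. Across the scale of fold enrichment it stayed within 2673 to 3292 with bufalin and 2652 to 3074 with periplocin. Weak members on a gene with a mean under 10 numbered 7 and 2.

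The most deeply read genes with a pair weak in both lists were Hsp90b1, Calr, Ahnak, Eif3a and Lamc1. Hsp90b1, the endoplasmic reticulum Hsp90, had a mean of 171099 normalized counts in the bufalin comparison and pairs at 1.23 and 1.26 and at 1.33 and 1.29 (bufalin and periplocin). The calcium-binding chaperone Calr had a pair at 1.11 and 1.14, and the scaffold protein Ahnak one at 1.34 and 1.26. Eif3a, a subunit of a translation initiation factor, had pairs at 1.25 and 1.27 and at 1.2 and 1.21. Lamc1, the laminin gamma chain, had pairs at 1.49 and 1.48 and at 1.46 and 1.48. Among these 8 pairs the folds of the lists lay farthest apart at Ahnak.

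Markers of the labelled myoblasts were partly present. In the bufalin comparison 7 of 9 had a mean of at least 10 normalized counts, among them Vim with 72405, Tnnt2 with 4293, Des with 1037 and Myod1 with 716, while Myf5 and Actc1 were listed at 0. All 5 smooth muscle markers passed that mean, from 748 for Myh11 to 93553 for Cald1, as did 2 of 5 endothelial markers (Vwf with 274), 3 of 5 leukocyte markers (Cd14 with 126) and 1 of 4 epithelial markers (Krt8 with 1100). The others of those 3 types that passed were Tek with 12.0, Cd68 with 79.6 and Cd3e with 26.4. Below that mean stood Cdh5 with 4.52, Pecam1 with 3.89, Ptprc with 1.06 and Itgam with 0.518. Kdr, Epcam, Cdh1 and Krt18 were listed at 0 there. In the periplocin comparison 6 of 9 myoblast markers passed, with Myog at 9.98, and Epcam and Cdh1 stood at 1.52 and 1.11. No endothelial, leukocyte or epithelial marker had a peak, and the part of other cells in the values was not tested.

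The m6A change between treated and control cells was not itself used by the rule. Its direction is not stated in the files and was read as treated over control. The change need not be independent of the choice by fold, since whether the fold covers treated libraries is not known here. In the bufalin list 1 of 1353 members passed an FDR of 0.05, against 3 of all 9866 peaks (0.0304%). In the periplocin list it was 1 of 1549, against 4 of 9170 (0.0436%). Counts of 1 are too few to set against these shares.

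The bufalin member was a 101-base peak at chr5:167657722-167657822 on Rere, a transcriptional corepressor of the atrophin family. Its fold enrichment was 1.4 and its log2 change -1.27, with an FDR of 0.0339 from the authors' peak comparison. The overlapping periplocin peak on Rere had a fold of 1.79, a log2 change of -0.68 and an unadjusted p of 0.0170. Both comparisons use the same control libraries.

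The periplocin member lay on Dlg4, the scaffold protein PSD-95, as a 100-base peak over 2 blocks at chr10:56627596-56636087. It had a fold of 1.29 and a log2 change of only 0.24, and its deposited log10 p and log10 FDR were both -434. The next lowest log10 p in that list was -6.96, and the partner of the Dlg4 peak with bufalin had a fold of 1.27, a change of 0.19 and a log10 p of -0.195. The call rests on that entry. Without it no periplocin member passed, and the next lowest FDR among the members was 0.270.

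At an unadjusted p below 0.05 there were 54 of 1353 bufalin members (3.99%), against 3.04% of all peaks, and 70 periplocin members, 4.52% against 3.37% of all peaks. Of the 54 bufalin members 49 had a change below 0, as had 224 of the 300 such peaks of the whole list (2.27% of all peaks). Of the 70 periplocin members 50 had one, as had 174 of 309 (1.90% of all peaks). The part of the choice by low fold in these signs was not tested. A deposited FDR of 1 was given for 1344 bufalin and 1524 periplocin members.

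Besides Rere, the lowest p-values with bufalin belonged to Map2k3 (log2 change -3.70, p = 0.000427), Spin1, a reader of histone methylation (-1.03, p = 0.000603), Leng8 (-0.66, p = 0.00120), Ripor1 (-0.43, p = 0.00132), and R3hdm2 (-0.96, p = 0.00186), none of which passed an FDR of 0.05 in the authors' comparison. The overlapping periplocin peaks had changes of 1.68 for Map2k3, -0.59 for Spin1, -0.44 for Leng8, -0.52 for Ripor1 and -0.77 for R3hdm2. For Map2k3 the values of the compounds thus had opposite signs, at peaks of different extent with folds of 1.29 and 3.61.

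With periplocin the members next to Dlg4 by p were on Vim, the intermediate filament vimentin, Enah, an actin regulator, Ripor1 and Tgfbi, a secreted matrix protein. In the authors' comparison the log2 change was 0.17 for Vim (p = 0.000263) and -0.52 for Ripor1 (p = 0.00115). One Enah peak had -0.26 (p = 0.00115) and another 0.14 (p = 0.00129), and Tgfbi had -0.20 (p = 0.00155) in the authors' comparison. None of these passed an FDR of 0.05. The Vim, Enah and Tgfbi changes were small and sat on deeply read genes, with means of 66470, 54645 and 8465 normalized counts. The bufalin partners had changes of 0.07 for Vim, -0.15 and -0.00 for the Enah peaks and -0.11 for Tgfbi.

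**Figure D5:**
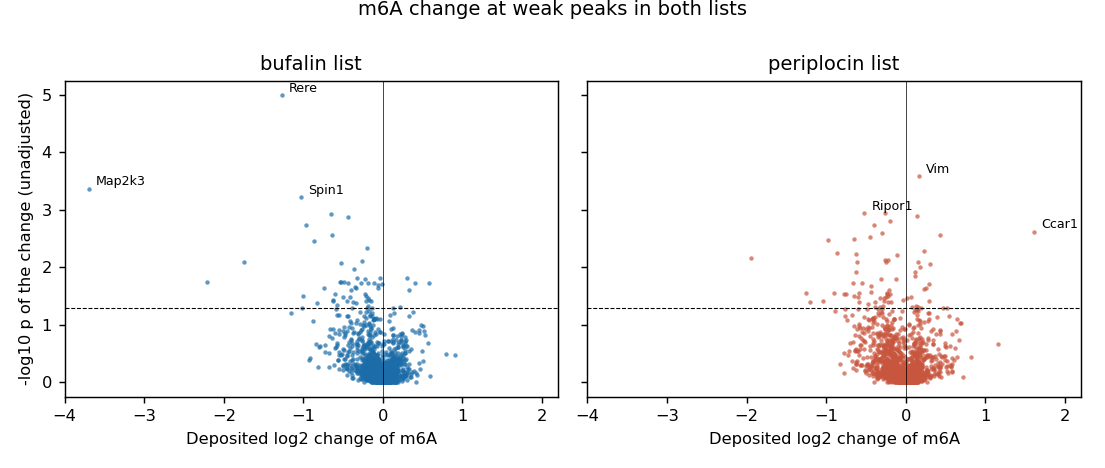
Deposited log2 change of m6A, read as treated over control (x axis), and -log10 of its unadjusted p (y axis) for the weak peaks in both lists, 1 point per peak, with bufalin on the left and periplocin on the right and a dashed line at a p of 0.05. The Dlg4 peak, with a deposited log10 p of -434, is off the scale and not drawn. Rere and Map2k3 stand out to the left with bufalin, Ccar1, named after its value was seen, stands out to the right with periplocin at 1.61, and most points crowd around 0.

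Most members had small changes, and more of them lay below 0 than above. The median log2 change was -0.0432 for the bufalin members with quartiles of -0.16 and 0.06, and 839 of 1353 (62.0%) were below 0. For the periplocin members the median was -0.0422 with quartiles of -0.18 and 0.08, and 932 of 1549 (60.2%) were below 0. Over all listed peaks the medians were -0.0206 and -0.0101 with 54.8% and 52.3% below 0, and over the other peaks in both lists -0.0233 and -0.00958 with 55.5% and 52.2%. Weak peaks of 1 list had 45.9% and 42.7% below 0. With the threshold at 1.6 the shares of members below 0 were 61.9% and 59.9%, so they were not particular to folds below 1.5. Within the members the share below 0 was 64.7% at 101 bases or fewer and 58.8% above with bufalin, and 61.7% and 58.1% with periplocin. How far the choice by low fold sets the shares below 0 was not tested.

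The median absolute log2 change was 0.11 for bufalin members and 0.13 for periplocin members, 0.11 for the other peaks in both lists with either compound, and 0.18 and 0.17 for weak peaks of 1 list. Absolute changes above 1 occurred in 7 bufalin and 6 periplocin members. The changes spanned -3.70 to 0.91 with bufalin and -1.95 to 1.61 with periplocin.

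RNA levels of the genes were a separate readout, and the sources used here do not say whether they come from input or IP libraries. The fold changes were read as treated over control: only so did the control means rebuilt from both RNA tables coincide, within 1% in 10608 of 10608 genes after a constant offset of 0.05 (log2), against 10.9% of genes at most under another reading. This bears on periplocin, where the deposited test statistic has the sign opposite to the fold change in all 12913 genes. In the authors' deposited table for bufalin 5 genes with a member had a called RNA change by an adjusted p of 0.05, of 722 such genes with an adjusted p (0.693%), against 10 of all 3321 genes with one (0.301%) and 5 of 1665 genes with other peaks only (0.300%). In the authors' deposited table for periplocin 18 of 1337 such genes were called (1.35%), against 67 of 12445 genes overall (0.538%) and 31 of 3539 genes with other peaks only (0.876%). The genes with a member also had more reads, with a median of 3084 normalized counts with bufalin against 1801 for genes with other peaks only, and 2832 against 1820 with periplocin. Adjusted over all genes with a p, the calls were 5 with bufalin and 18 with periplocin, against 0.0932% and 0.519% of all genes. At an unadjusted p under 0.05 in the authors' deposited tables there were 115 of 1178 genes with bufalin (9.76%, against 5.0% of all genes) and 154 of 1337 with periplocin (11.5%, against 6.25%). Genes with other peaks only were at 6.50% and 8.34%, and genes without a peak, which had few reads, at 3.52% and 4.45%. The part of depth in these shares was not tested.

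All 18 called periplocin genes were higher than in control, as were 64 of all 67 called genes (0.514% of the genes tested), so this direction was that of the whole table. The 18 genes had adjusted p-values from 7.62e-07 for Dusp1 to 0.0447 for Sfswap in the authors' deposited table, by DESeq2. By size of change in the authors' deposited table they began with Atf3, a stress-induced transcription factor, at 1.02 ± 0.23 (log2 ± SE), and Dusp1, a phosphatase of MAP kinases, at 0.51 ± 0.08. They went on with Sphk1, which makes sphingosine 1-phosphate, at 0.35 ± 0.09, Rnd3 at 0.34 ± 0.08, Trrap, a scaffold of acetyltransferase complexes, at 0.29 ± 0.05, and Plec, the linker plectin, at 0.28 ± 0.05 in the authors' deposited table. Ahnak and Pik3c2a, a lipid kinase, stood at 0.24 ± 0.04 and 0.23 ± 0.06 in the authors' deposited table. The remaining called genes in the authors' deposited table, named after their values were seen, were Sfswap, Baz2a, Nfat5, Dync1h1, Epha2, Dst, Ubr4, Ddx5, Macf1 and Akap9, from 0.22 down to 0.16.

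At the weak peaks of these genes the m6A change was not called, as at all but 1 of the 1549 periplocin members. With calls so rare, their absence here is no result about these genes. The Atf3 peak, 100 bases at chr13:109820603-109820702, had a fold of 1.42 and a log2 m6A change of 0.01 with periplocin, and its bufalin partner had 1.78 and 0.13. The Dusp1 peak at chr10:16972882-16973030 had 1.24 and -0.42 with periplocin and 1.43 and -0.13 with bufalin, with unadjusted p-values of 0.109 and 0.773. The Plec members had m6A changes of 0.23 and 0.11, the Rnd3 members 0.17 and -0.09, the Pik3c2a members -0.55 and -0.31, and the Trrap member -0.18. Among these members the lowest unadjusted p-values of the authors' peak comparison were 0.0240 for the Plec peak at 0.23 and 0.0832 for the Rnd3 peak at 0.17. All of these had an FDR of 1 in the authors' peak comparison.

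With bufalin the 5 called genes were H19, Myh1, Crebbp, Tgfb3 and Cxcl12. The H19 peak of the bufalin list, 248 bases at chr1:215746388-215746635, had a fold of 1.44 and a log2 m6A change of 0.04. The overlapping periplocin peak had 100 bases and a fold of 1.58. The authors' deposited table for bufalin gave the H19 RNA, an imprinted noncoding transcript, a log2 change of 0.51 ± 0.05 (SE). Tgfb3, a growth factor, had members at 1.16 and 1.45 with m6A changes of -0.09 and -0.04, and an RNA change of -0.30 ± 0.07 in the authors' deposited table. The chemokine gene Cxcl12 had a member at 1.44 with an m6A change of -0.05, and an RNA change of -0.25 ± 0.05 in the authors' deposited table. Myh1, a skeletal myosin, had one at 1.41 with 0.18, and Crebbp, a histone acetyltransferase, had members at 1.33 and 1.29 with changes of 0.03 and -0.28. Their RNA changes were 0.47 ± 0.11 and 0.29 ± 0.07 in the authors' deposited table, where the adjusted p of these called genes ran from 9.01e-23 for H19 to 0.0130 for Myh1, by DESeq2.

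The share of a gene list's peaks that were members is given beside 13.7% of all bufalin and 16.9% of all periplocin peaks. Among the actin cytoskeleton and giant linkers, 11 of 25 genes with at least 10 normalized counts on average had a member in each list, with 23 of 132 bufalin peaks (17.4%) and 23 of 130 periplocin peaks (17.7%). Flna, the actin crosslinker filamin A, was among the weakest at 1.08 and 1.11. Heat shock proteins and chaperones had 7 of 28 and 7 of 26 peaks among the members (26.9% of the latter), on Hsp90b1, Calr, Canx and others. Extracellular matrix genes had 5 of 24 and 6 of 23, with Lamc1, Col5a1, a fibrillar collagen, and Ccn1 leading in reads. Of translation factor peaks 6 of 38 and 4 of 34 were members, on Eif3a, Eif4g2, Eif4g3 and others.

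Muscle and chromatin genes followed. Myogenic and sarcomere genes had 5 of 21 bufalin and 6 of 20 periplocin peaks among the members. Myh3, the embryonic myosin heavy chain, had 3 of 5 peaks in each list at folds from 1.29 to 1.35 with bufalin and from 1.18 to 1.38 with periplocin, and Tpm2, a tropomyosin, had one at 1.42 and 1.43. Chromatin regulators had 12 of 78 and 14 of 69, with the remodelling ATPase Smarca4 at 1.27 and 1.29. Cell cycle genes had 7 of 38 and 8 of 36, of which the proliferation marker Mki67 gave 4 and 3.

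The genes of the m6A machinery carried weak peaks too, with 8 of 43 bufalin and 4 of 38 periplocin peaks. Zc3h13, a subunit of the methyltransferase complex, had one at 1.47 with bufalin, overlapped by a periplocin peak at 1.61. At another position it had one at 1.4 with periplocin, overlapped by a bufalin peak at 1.53. The reader gene Fmr1 had one at 1.48 with bufalin, with a periplocin partner at 1.5. The reader gene Ythdf3 had one at 1.35 with periplocin, with a bufalin partner at 1.62. The catalytic subunit gene Mettl3, named after its values were seen, had a 99-base pair at 1.37 and 1.32. Immediate early genes had 5 of 30 and 3 of 27, among them Dusp1 in both lists and Csrnp1 at 1.4 and Klf4 at 1.42 with bufalin. The periplocin partners of the Csrnp1 and Klf4 peaks stood at 1.56 and 1.74.

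Other groups held few or no members. Glycolysis enzymes had 18 genes with that mean but only 4 and 5 with any peak, and nuclear-encoded oxidative phosphorylation had 23 with 3 in each list, and in neither was a peak a member. Of the cytosolic ribosomal protein genes, 38 with such a mean, 9 and 7 had a peak and Rpl13a alone a member. Subunits of the Na/K-ATPase, the known target of cardiotonic steroids, had 6 genes with such a mean and no member: the bufalin list had no peak on them, and the periplocin list had 1, at 1.34 on Atp1b3, which had no partner. No member of any of these lists passed an FDR of 0.05 for its m6A change in the authors' comparison, where 1 of 1353 bufalin and 1 of 1549 periplocin members did. At an unadjusted p under 0.05 no list had more than 1 with bufalin, against 3.99% of all bufalin members. With periplocin the actin list had most, 3 of its 23 members, against 4.52% of all periplocin members and 3.37% of all periplocin peaks. These counts are too few to set against the shares.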

How the data were processed

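m6A peaks and RNA of rat H9C2 cells came from 18 samples, put into groups by their labelled treatment and library. Libraries were stranded and carried molecular identifiers, per the labels' protocols. Reads were processed with HISAT2, StringTie and DESeq on build rn6, per the submitters' processing notes; for the peak caller and any pooling of replicates, the sources used here give nothing. The deposited fold enrichment was taken as a ratio of IP to input. The deposited log10 values are those of the p and FDR, both for enrichment and for the m6A change, and the log2 values are changes of m6A and RNA, per the file headers. The deposited signal is the mean normalized count of a gene, used as a measure of depth. RNA p-values and adjusted p-values are those of the authors' deposited DESeq2 tables, and the deposited test score was used only to check signs.

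Starts were written from 1. Overlap needed 1 shared base of the spans on the same chromosome and strand, and a peak's partner was the overlapping one with most shared bases, of the same gene name where there was one. Calls used an FDR or adjusted p under 0.05. The overlap search and the Benjamini-Hochberg adjustment were tested on simulated data. No model was fitted, since the files used hold comparisons and no values per sample. Of the gene names with a member 97.5% matched RefSeq (assembly GRCr8), which gave only names and strands.

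The peaks and gene lists were chosen with earlier results of these data known. Named peaks followed a rule: the lowest folds, those at the threshold, called or lowest-p changes, the most deeply read pairs, the genes with most members, genes with called RNA changes, up to 3 genes per list and the largest partner folds. A few items that this rule names are not reported here. Alternatives changed the threshold, the overlap, the blocks and the call rule. Python 3.11.15, pandas 2.3.3, numpy 2.4.6, scipy 1.17.1 and matplotlib 3.10.9 were used.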

Additional observations from a re-analysis of the deposited data

How the results depend on the processing

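With a threshold of 1.4 the bufalin list had 796 members and the periplocin list 921, and 569 pairs were weak in both; with 1.6 the pairs numbered 1706. Restricted to peaks of 1 exon block, the members numbered 559 and 664 and the pairs 397. Calls of m6A change moved with the rule. With bufalin the count of 1 became 0 below a fold of 1.4, since Rere stands at 1.4 (36 at an unadjusted p under 0.05 by the authors' peak comparison), 0 at an FDR of 0.01 and 54 at an unadjusted p of 0.05. With periplocin it became 0 among peaks of 1 block (24 at an unadjusted p under 0.05 by the authors' peak comparison), since the Dlg4 peak has 2 blocks, 0 without the peak at -434 (an alternative chosen after seeing the data) and 70 at an unadjusted p of 0.05. RNA calls among genes with a bufalin member went from 5 to 10 at an adjusted p of 0.1 and to 2 below a fold of 1.4. Under the alternatives for the threshold, overlap and blocks, checked after seeing the data on largely shared peaks, the plus-strand share ran from 51.3% to 54.4% with bufalin and from 52.6% to 54.8% with periplocin. The share below 0 ran from 61.2% to 62.2% and from 57.7% to 61.1%, and the share over several blocks, which the restriction to 1 block cannot give, from 56.4% to 56.8% and from 51.4% to 53.0%. No paired analysis was possible because the files hold 1 value per peak or gene and comparison, and leaving out replicates was not run for the same reason. Depth of single libraries is unknown.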
